A study of Gallus gallus with 4 samples.

Results

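The teashirt genes TSHZ1, TSHZ2 and TSHZ3 encode large zinc finger transcription factors. They were taken from a table in which the authors compared Hox with WT, as the lines whose symbol is TSHZ1 (ENSGALG00000013672), TSHZ2 (ENSGALG00000007809) or TSHZ3 (ENSGALG00000004528). All 3 genes had a line and an adjusted p-value, among 17108 genes listed, 12574 genes with an adjusted p-value and 1432 genes with a symbol. The family was selected on its fold changes in this comparison, which were already known, so its own values are given as a description. No count test was run. The authors' p-values were recomputed under other settings only to show how the deposited calls depend on them, and these p-values lend the choice of genes no support.

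The libraries hold polyadenylated RNA of chick trunk neural tube cells. Embryos were electroporated at Hamburger-Hamilton stage 11 with pCIG alone at 2 µg/µl (control, 2 libraries) or with Hoxb8-pCIG at 1 µg/µl plus pCIG at 1 µg/µl (Hoxb8, 2 libraries). pCIG is an expression plasmid that also carries green fluorescent protein. After 18 hours the fluorescent part of the tube was dissected and live fluorescent cells were sorted, so every library comes from electroporated cells and the added Hoxb8 stands on top of the cells' own Hox genes. WT was read as the pCIG control, because no further group is labelled. A positive fold change means more RNA in Hoxb8, a direction taken from the table's title. The labels do not say whether the libraries come from separate pools of embryos. The deposited p-values rest only on a spread that the authors' fit drew from these libraries, which may be technical. HOXB8 has 0 lines under its symbol, and the electroporated gene was not analysed here.

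Teashirt was found in Drosophila as a homeotic gene that gives trunk segments their identity beside the Hox genes, and its protein acts there mainly as a repressor of transcription and as a partner in Wingless signalling. Vertebrates carry paralogues with the same kind of zinc fingers and an unusual homeodomain, and in mouse these genes are known from the olfactory bulb, palate and middle ear (Tshz1) and from the smooth muscle of the ureter and from breathing and forebrain circuits (Tshz3). Tshz2 is the member with the least described function.

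The 3 paralogues did not move alike. In the authors' deposited table TSHZ2 rose 2.15-fold, TSHZ3 rose 1.30-fold, and TSHZ1 stood at 0.824 times its control level and did not pass an adjusted p under 0.05. Thus 2 of 3 members passed, both higher in Hoxb8, where 15.2 percent of all tested genes passed in either direction and 8.72 percent passed as higher and 6.49 percent as lower. This count follows from the same comparison that picked the family. Antisense and overlapping transcripts could not be told apart from the genes themselves, since whether the counting used strand is not given in the sources used here.

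For each gene the table gives 1 mean over the 4 libraries, with reads scaled by the size factor of their library. Because each mean is printed with 15 digits, the whole reads of each library could be recovered for the 3 genes. Only 1 set of 4 read counts per gene returned both the deposited mean to its last digits and the deposited fold change within 2e-06 on the log2 scale. The libraries are called Hoxb8 a and b (size factors 1.053 and 1.051) and control a and b (0.958 and 0.954), in no order and not tied to the replicate numbers of the labels. A library was placed with a group by the sign of the deposited fold change of genes with a single read in it.

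TSHZ2 had 1608 and 1759 reads in the Hoxb8 libraries and 722 and 570 reads in the control libraries. As normalised counts, reads divided by the size factor, these are 1527 in Hoxb8 a and 1673 in Hoxb8 b, against 754 in control a and 598 in control b. Both Hoxb8 libraries lay above both controls, and the lower Hoxb8 value was 2.03 times the higher control value. In the authors' deposited table the log2 fold change was 1.10 ± 0.17 (standard error, here and below) with an adjusted p of 4.12e-09. The plain log2 ratio of the group means was 1.24, larger than the deposited value because the authors' fold changes are moderated toward 0. The controls differed more from each other than the Hoxb8 libraries did, by 0.33 against 0.13 on the log2 scale. This control gap was larger than that of 85.1 percent of the 288 genes with a symbol and recovered reads at a mean within 2-fold of TSHZ2. The exact 95% Poisson interval of the reads ran from 670.3 to 777 in control a and from 524 to 619 in control b, so the gap between the controls exceeded counting error, the only error these intervals cover. Leaving out control b gave the lowest plain log2 ratio, 1.09, and leaving out control a the highest, 1.42.

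TSHZ3 had 5397 and 5471 reads in the Hoxb8 libraries and 3864 and 3625 reads in the controls. The normalised counts were 5124 in Hoxb8 a and 5204 in Hoxb8 b, against 4034 in control a and 3800 in control b. The groups did not overlap, and the Hoxb8 libraries lay within 0.022 of each other on the log2 scale. The authors' deposited table gave TSHZ3 a log2 fold change of 0.38 ± 0.12, with an adjusted p of 0.0218. The 4 ratios of a Hoxb8 to a control library ran from 1.27 to 1.37. The call ended when the Wald scores of all genes were divided by their central spread of 1.69. This gave an adjusted p of 0.633, the highest of all settings. The lowest, 0.000836, came when genes over a mean of 10000 were set to a median of 0.

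TSHZ1 had 6873 and 6660 reads in the Hoxb8 libraries and 7529 and 7552 reads in the controls. The normalised counts were 6525 in Hoxb8 a and 6335 in Hoxb8 b, against 7860 in control a and 7917 in control b. Both Hoxb8 libraries lay below both controls, also in reads before division by the size factors. The authors' deposited table gave TSHZ1 a log2 fold change of -0.28 ± 0.12, with an adjusted p of 0.0931 and a 95% interval from the deposited standard error of -0.51 to -0.048. The controls lay within 0.010 of each other on the log2 scale, closer than those of all but 5.36 percent of the 280 genes with a symbol and recovered reads at a like mean. Its value moved with the scaling. Centred on genes of like mean level the log2 fold change was -0.19, and it was -0.16 when genes over a mean of 10000 were set to a median of 0. The other members moved too: in the same order of settings the values were 1.02 and 1.23 for TSHZ2 and 0.41 and 0.50 for TSHZ3.

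All 3 teashirt genes had groups that did not overlap, TSHZ2 and TSHZ3 higher and TSHZ1 lower in Hoxb8. The same held for 57.7 percent of the 1093 genes with a symbol whose reads were recovered, 31.8 percent higher and 25.9 percent lower, so separation of the groups by itself sets no gene of this table apart.

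**Figure D1:**
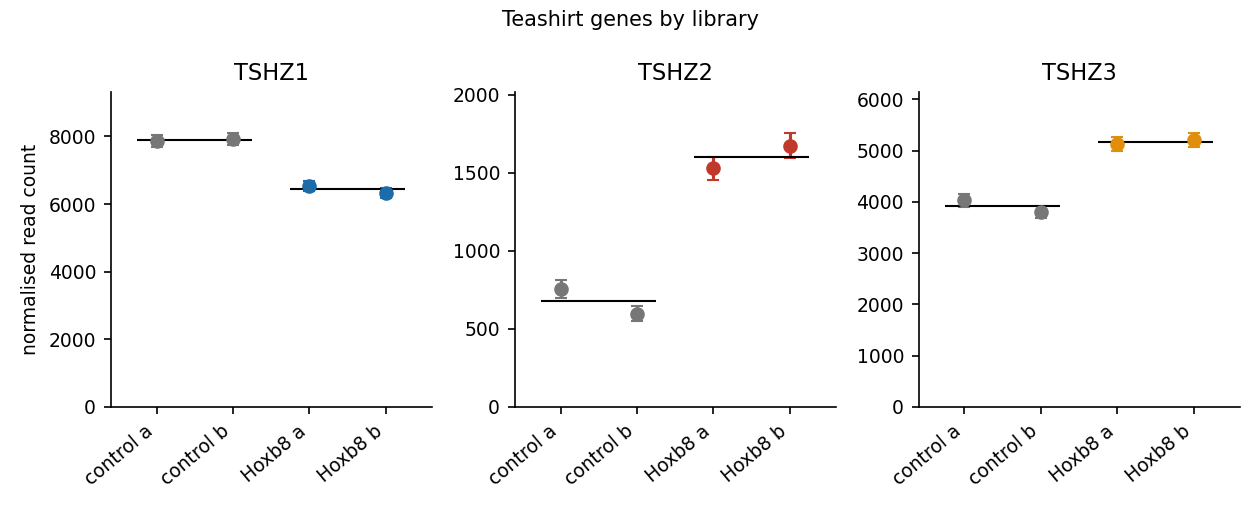
Normalised read count (y axis, from 0) of TSHZ1, TSHZ2 and TSHZ3 in each of the 4 libraries (x axis), with the exact 95% Poisson interval of the reads as bars and the mean of each group as a line. TSHZ2 lies at 754 and 598 in the controls and at 1527 and 1673 in Hoxb8, TSHZ3 also lies higher in both Hoxb8 libraries, and TSHZ1 lies lower in both.

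Ratios between the paralogues within a library do not depend on the size factors. Reads of TSHZ2 came to 23.4 and 26.4 percent of those of TSHZ1 in Hoxb8 a and b, against 9.59 and 7.55 percent in control a and b. Mean log2 ratios differed by 1.55 between the groups, a 2.92-fold higher ratio in Hoxb8. Reads of TSHZ3 came to 78.5 and 82.1 percent of those of TSHZ1 in Hoxb8 and to 51.3 and 48.0 percent in the controls, a 1.62-fold higher ratio. Reads of TSHZ2 came to 29.8 and 32.2 percent of those of TSHZ3 in Hoxb8 and to 18.7 and 15.7 percent in the controls, a 1.81-fold higher ratio. A ratio within a library shows unequal change, and it does not say which gene of the pair changed.

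The differences between the deposited log2 fold changes tell the same values on the moderated scale. In the authors' deposited table TSHZ2 exceeded TSHZ1 by 1.38 on the log2 scale, TSHZ2 exceeded TSHZ3 by 0.73, and TSHZ3 exceeded TSHZ1 by 0.66. Standard errors of these differences would be 0.21, 0.21 and 0.17 if the genes varied independently, which genes of the same libraries need not do.

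The family total differed less between the groups than any of the 3 genes did. Summed over the 3 genes, the normalised count was 13175 and 13212 in the Hoxb8 libraries and 12648 and 12315 in the controls. TSHZ1 held 62.1 and 64.3 percent of the teashirt reads in control a and b and 49.5 and 47.9 percent in Hoxb8 a and b. TSHZ2 held 5.96 and 4.85 percent in the controls and 11.6 and 12.7 percent in Hoxb8, and TSHZ3 held 31.9 and 30.9 percent in the controls and 38.9 and 39.4 percent in Hoxb8. Longer transcripts collect more reads and no transcript lengths of the files' build were at hand, so these shares compare libraries and do not rank the paralogues by level.

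**Figure D2:**
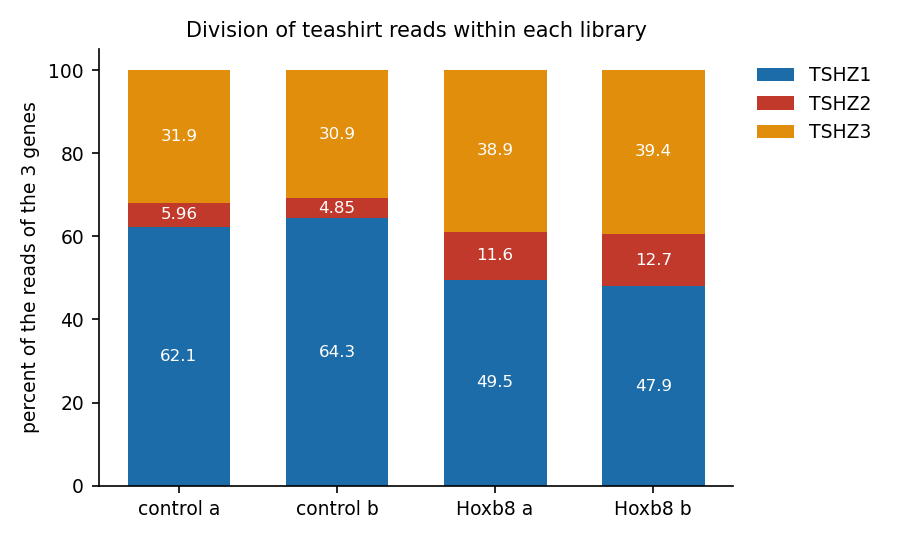
Share of the reads of the 3 teashirt genes (y axis, percent, from 0) taken by TSHZ1, TSHZ2 and TSHZ3 in each library (x axis). The TSHZ1 share is 62.1 and 64.3 percent in the controls and 49.5 and 47.9 percent in Hoxb8, and the shares of TSHZ2 and TSHZ3 are larger in both Hoxb8 libraries.

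Fold changes in this table depend on the mean level of the gene, so each member was set beside genes of its own level. TSHZ2, at a deposited mean of 1138 normalised counts, lay where the running median of all tested genes was 0.079 on the log2 scale. Of the 2654 tested genes with a mean within 2-fold of it, 381 passed as higher and 119 as lower (18.8 percent in all), and 97.1 percent had a lower log2 fold change than TSHZ2. TSHZ3, at a mean of 4540, lay where the running median was -0.036, and of 4108 genes of like mean 263 passed as higher and 308 as lower (13.9 percent in all). TSHZ3 had a higher log2 fold change than 93.9 percent of them. TSHZ1, at a mean of 7159, lay where the running median was -0.086, and of 3765 genes of like mean 167 passed as higher and 349 as lower (13.7 percent in all). A higher log2 fold change than that of TSHZ1 was found in 3201 of them. Calls at the level of TSHZ3 were thus split nearly evenly, with somewhat more lower than higher, and the value of TSHZ1 lay on the side of most calls at its level. These ranks describe the comparison that picked the genes.

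**Figure D3:**
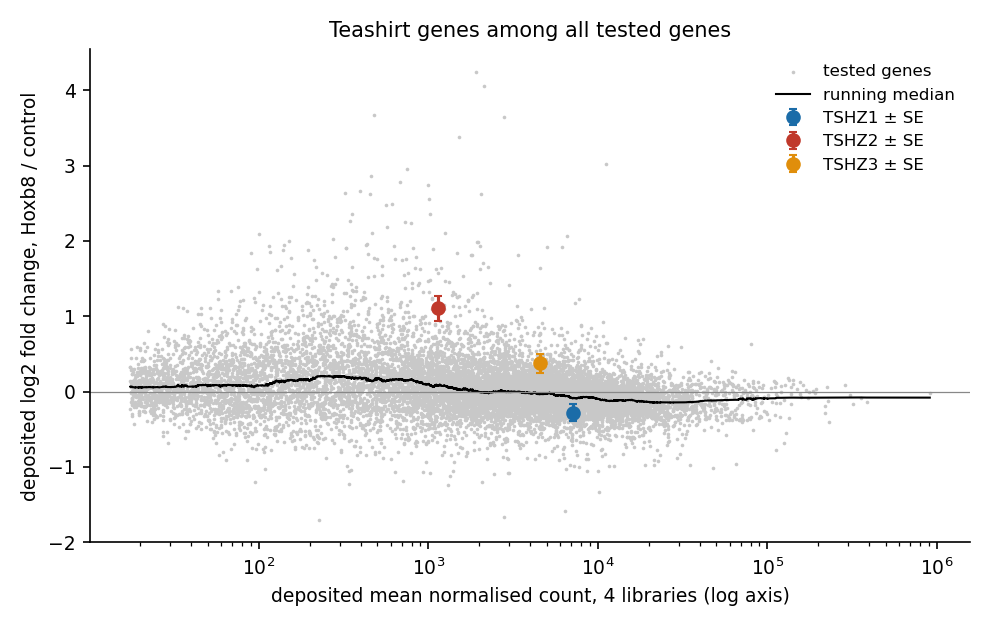
Deposited log2 fold change, Hoxb8 over control (y axis), against the deposited mean normalised count of the 4 libraries (x axis, log scale) for the 12574 tested genes in grey, with their running median as a line and the teashirt genes with their standard errors in colour. TSHZ2 (1.10) lies above 97.1 percent of the genes of its level, TSHZ3 (0.38) above the median and TSHZ1 (-0.28) below it.

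The deposited standard errors of the 3 genes were near those of genes of their level. The deposited standard errors of 0.17 for TSHZ2, 0.12 for TSHZ3 and 0.12 for TSHZ1 stood beside medians of 0.17, 0.13 and 0.13 among the genes of like mean. The dispersions that return these standard errors would correspond to a variation beyond counting of 12.7 percent for TSHZ2, 9.02 percent for TSHZ3 and 8.55 percent for TSHZ1. They are values of the authors' fit and not the measured spread of the libraries. Between the recovered libraries, the log2 gaps in Hoxb8 and in the controls were 0.13 and 0.33 for TSHZ2. For TSHZ3 they were 0.022 and 0.086, and for TSHZ1 0.043 and 0.010.

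Genes beside the teashirt loci were looked up in the gene order of the RefSeq annotation of assembly GRCg7b, 3 protein-coding genes on either side, and 4 of these 18 places held a gene with a symbol in the table. Beside TSHZ3, the zinc finger gene ZNF536, a transcriptional repressor, rose in the authors' deposited table, with a log2 fold change of 0.61 ± 0.20 and an adjusted p of 0.0197, and this call was lost with scores divided by their spread (adjusted p = 0.619). Its normalised counts were 1956 and 2012 in Hoxb8 and 1564 and 836 in the controls, so the groups did not overlap but control b was far below control a. On the other side of TSHZ3, ZNF507, another zinc finger gene, had a deposited log2 fold change of -0.25 ± 0.17 and an adjusted p of 0.377, with 1794 and 1265 normalised counts in Hoxb8 and 1687 and 2030 in the controls, which overlap. Beside TSHZ1, ZADH2, a reductase gene, stood at -0.19 ± 0.11 and ZNF407, a zinc finger gene, at -0.29 ± 0.14 among the authors' deposited log2 fold changes, with an adjusted p of 0.271 and 0.135. Both had lower normalised counts in each Hoxb8 library than in either control, as TSHZ1 did. The same held for 25.9 percent of the 1093 genes with a symbol and recovered reads, and 31.8 percent were separated as higher, as ZNF536 was. Centred on genes of like level, ZADH2 stood at -0.078 (adjusted p = 0.736) and ZNF407 at -0.27 (adjusted p = 0.193). None of the genes looked up beside TSHZ2 has a line under its symbol.

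Lists of Hox genes, their cofactors, zinc finger homeobox genes, corepressors and WNT pathway genes held 12 tested genes besides the family. Of these, 0 passed as higher and 2 as lower in the authors' DESeq2 comparison, beside 15.2 percent of all tested genes in either direction. At an unadjusted p under 0.05 there were 2 higher and 3 lower, beside 14.0 percent of all tested genes as higher and 12.7 percent as lower (26.7 percent in all). Of 4 tested Hox genes, the posterior gene HOXB9 had a deposited log2 fold change of -0.63 ± 0.12 with an adjusted p of 1.99e-06. It fell from 14100 and 13987 normalised counts in the controls to 9133 and 8562 in Hoxb8. With scores divided by their spread, HOXB9 was only just under the threshold (adjusted p = 0.0489). HOXB7 stood at -0.16, HOXD10 at -0.48 and HOXD11 at -0.033. HOXD11 had only 24 and 16 reads in Hoxb8 and 35 and 6 in the controls, so its value near 0 does not show a steady level. HOXD10 passed (adjusted p = 0.0432) once fold changes were centred on those of genes of like level, but not with scores divided by their spread (adjusted p = 0.903). Its normalised counts were 334 and 217 in Hoxb8 and 548 and 324 in the controls, which overlap. The Hox cofactor MEIS1 stood at -0.067 in the authors' deposited table, with 11800 and 14116 normalised counts in Hoxb8 and 13916 and 13319 in the controls. Among zinc finger genes that also carry homeodomains, as teashirt genes do, ZFHX4 fell in the authors' deposited table, with a log2 fold change of -0.58 ± 0.13 and an adjusted p of 0.000146, and ZHX2 and ZHX3 stood at -0.027 and -0.024. ZFHX4 had 5974 and 5184 normalised counts in Hoxb8 and 8147 and 9025 in the controls, and its call ended with scores divided by their spread (adjusted p = 0.175). The corepressor gene TLE1 stood at -0.12. Of the WNT pathway genes, the feedback inhibitors RNF43 and NKD1 and the target gene SP5 stood at 0.63 ± 0.25, -0.24 ± 0.13 and 0.52 ± 0.27 in the authors' deposited table and did not pass. RNF43 passed (adjusted p = 0.0166) when genes over a mean of 10000 were set to a median of 0. The median log2 fold change was -0.32 over the 4 tested of 7 listed Hox genes and -0.027 over the 3 tested of 15 zinc finger homeobox and spalt genes. It was 0.52 over the 3 tested of 16 WNT genes, where it is the value of SP5, against -0.0053 over all tested genes. Medians of so few genes do not describe a whole family or pathway. The lists of eye determination genes, which act with teashirt in Drosophila, and of vertebrate TSHZ partners had 0 lines under their symbols.

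**Figure D4:**
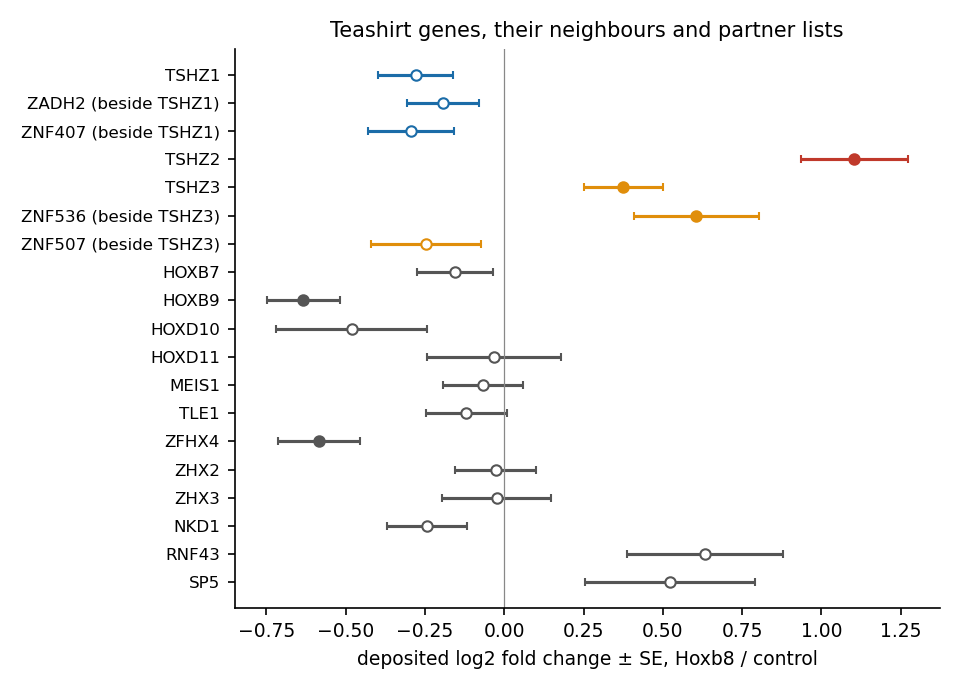
Deposited log2 fold change, Hoxb8 over control (x axis), with its standard error for the teashirt genes, their neighbours with a symbol and the tested members of the Hox, cofactor, zinc finger homeobox, corepressor and WNT lists. Filled points passed an adjusted p under 0.05: TSHZ2, TSHZ3 and ZNF536 to the right of 0, HOXB9 and ZFHX4 to the left.

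Few cell type markers carry a symbol, and each marker list had 1 or 2 tested genes. ID3, of neural progenitors, had 4673 and 4985 normalised counts in Hoxb8 and 5942 and 6267 in the controls (-0.32 as a log2 fold change among the authors' deposited values, not past the threshold). The neuronal calcium-binding protein gene CALB2 rose by 1.75 on the moderated log2 scale in the authors' deposited table. Its normalised counts were 74.1 and 52.4 in the controls and 347 and 371 in Hoxb8. PAX3, of dorsal progenitors and neural crest, fell by 0.82 on the moderated log2 scale in the authors' deposited table. It had 19183 and 17083 normalised counts in the controls and 10147 and 9679 in Hoxb8. The somite gene UNCX stayed between 136 and 234 normalised counts in all libraries. The surface ectoderm gene GRHL2 had 67.4 and 68.5 in Hoxb8 and 114 and 132 in the controls and did not pass. Among markers of blood and endothelium, LMO2 rose by 1.48 on the moderated log2 scale in the authors' deposited table. PECAM1, of the same list, ranged from 1159 to 2750 normalised counts, both extremes in Hoxb8 libraries. CALB2 and LMO2, like TSHZ2 and TSHZ3, were higher and ID3, PAX3 and GRHL2, like TSHZ1, lower in both Hoxb8 libraries, as 57.7 percent of genes with recovered reads were in one direction or the other, and the part of these markers' cell types in the teashirt values was not tested. In sorted bulk cells, a change in the number of cells of a type and a change in RNA per cell cannot be told apart.

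Genes with the most similar response were named as the 5 genes with a symbol, at a mean within 2-fold of the member, whose deposited log2 fold change was nearest. For TSHZ2 these were SIDT1, LMO3, FRMPD1, UNC13B and SVOP, with log2 fold changes of 1.10, 1.08, 1.20, 0.98 and 0.96 in the authors' deposited table, all past the threshold. UNC13B and SVOP did not pass with scores divided by their spread (adjusted p = 0.111 and 0.0780). SIDT1, a transmembrane protein gene, differed from TSHZ2 by 0.0020 and had 1573 and 1641 normalised counts in Hoxb8 and 630 and 742 in the controls. LMO3, a LIM-only transcriptional cofactor gene, had 2428 and 3394 in Hoxb8 and 1240 and 1281 in the controls, a wider spread within Hoxb8 than TSHZ2 had. For TSHZ3 they were CBX2, LZTS2, TMEM19, IMPA1 and PTTG1IP, with log2 fold changes between 0.35 and 0.41 in the authors' deposited table, of which all but LZTS2 passed. With scores divided by their spread none of these 4 calls held (adjusted p from 0.652 to 0.728), nor did any at an adjusted p under 0.01, and LZTS2 passed (0.0178) when genes over a mean of 10000 were set to a median of 0. CBX2, a Polycomb subunit gene, had 5728 and 6596 normalised counts in Hoxb8 and 4434 and 4818 in the controls. LZTS2 had 3969 and 5889 in Hoxb8 and 3697 and 3755 in the controls. Its log2 fold change was nearly that of TSHZ3 (0.36 ± 0.16 in the authors' deposited table, adjusted p = 0.112), but its Hoxb8 libraries lay much farther apart. For TSHZ1 they were FN3KRP, FRMD4A, UTP18, MAP1A and LRIG2, with log2 fold changes between -0.29 and -0.27 in the authors' deposited table, of which 0 passed the authors' DESeq2 comparison and 4 had an unadjusted p under 0.05, as 26.7 percent of all tested genes had. The nearest genes of TSHZ1, TSHZ2 and TSHZ3 alike were chosen for their fold change at a like mean. Nothing is therefore read from how many of them passed or had a low p. FN3KRP, a deglycating kinase gene, had 9040 and 8101 normalised counts in Hoxb8 and 10685 and 10351 in the controls. Likeness here rests on 2 groups of 2 libraries.

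**Figure D5:**
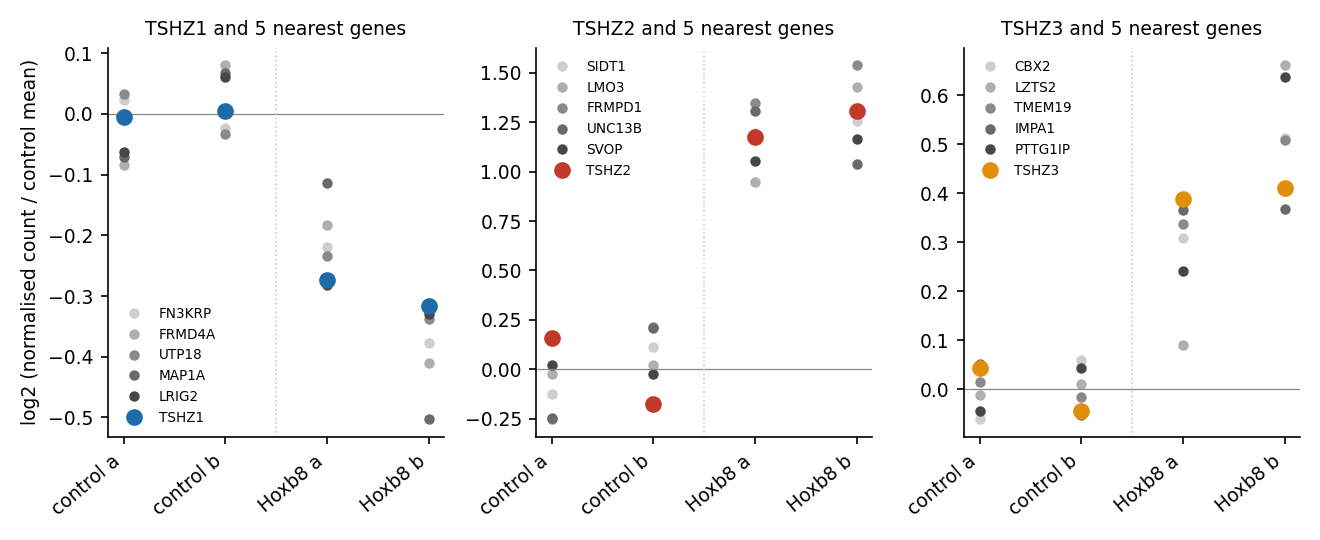
Log2 of the normalised count over the control mean (y axis) in each library (x axis) for each teashirt gene, in colour, and the 5 genes nearest to it in log2 fold change, in grey. The Hoxb8 points of TSHZ3 lie close together, while those of LZTS2 (3969 and 5889 normalised counts) lie apart.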

How the data were processed

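The signal deposited by the authors is each gene's mean, over 4 libraries, of counts divided by size factors. The authors' log2 fold changes and standard errors, Wald scores, p-values and Benjamini-Hochberg adjusted p-values were used as deposited, after the columns were checked against each other (largest deviation 9.24e-14). In the other settings, fold changes were shifted, Wald scores divided or genes filtered otherwise, and the p-values or their adjustment were computed again, or the threshold was changed. Build galGal4, Subread, featureCounts, DESeq and DESeq2 are named per the submitters' processing notes, without roles or versions, and the column names are those of a DESeq2 result, per the file headers. The deposited means sum to 79237283 normalised counts per library.

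Reads per library were computed here (Python 3.11.15, numpy 2.4.6, scipy 1.17.1). Genes with a single read give the 4 steps, and each of the 3358 genes below a mean of 60 (those at 0 left out) could be written as whole reads times these steps in exactly 1 way (largest deviation 0.595 units of the last printed digit). For higher means the authors' moderated negative binomial fit was rebuilt, with a prior SD of 0.53 (log2 scale) estimated from 27 low genes, and reads were accepted only when it also returned the deposited fold change. This gave 1093 of 1157 tested genes with a symbol. Those above a mean of 20000 were not tried. Of the 1129 up to this mean, 24 had no matching set of reads and 12 had several. These genes, SP5 and TLE1 among them, were left out of all values per library. The procedure was tested on simulated data, with the steps and the prior SD given to it and not estimated. The simulated means did not reach the highest ones accepted here, such as those of PAX3 and HOXB9. Before the fold change was used, 82 sets of reads matched the mean of PAX3 and 3 sets that of TSHZ1. No count test was run, since reads were recovered only for genes with a symbol. Members, lists and rules for named genes were chosen with earlier results of these data known. Named were the members, their neighbours, the 5 nearest genes of each and the tested list genes. Symbols come from the table, which has one for 8.37 percent of genes. No sequences were used here.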

Additional observations from a re-analysis of the deposited data

How the results depend on the processing

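No paired analysis was possible because the recovered libraries are not tied to replicate numbers. Scaling to total reads was not run, since totals were not derived. TSHZ2 kept its direction and call in all 8 settings applied to the deposited comparison. Not all of these could have ended the call. The thresholds of 0.01 and 0.1 could not, given its deposited adjusted p of 4.12e-09, and centring on the median of all tested genes (-0.0053) hardly moved it. The highest adjusted p, 0.00738, came with scores divided by their spread. TSHZ3, at 0.38, lost its call at an adjusted p under 0.01 and with scores divided by their spread, leaving 1 of the 3 genes past the threshold in each of these, and TSHZ1, at -0.28, gained one at an adjusted p under 0.1 (its adjusted p ran from 0.0886 to 0.834). Leaving out each library gave plain log2 ratios of -0.32 to -0.27 for TSHZ1, 1.09 to 1.42 for TSHZ2 and 0.36 to 0.44 for TSHZ3. In reads without size factors, a setting chosen after seeing the data, they were -0.16 for TSHZ1 and 0.54 for TSHZ3, which follows from the size factors. Of the 38 other named genes, 8 lost a call in at least 1 setting and 5 gained one. Reversed directions occurred in genes that did not pass: MEIS1 (0.053) centred on genes of like level, and, with genes over 10000 at 0, HOXD11 (0.091), MEIS1 (0.057), PECAM1 (0.097), TLE1 (0.0057), UNCX (0.058), ZHX2 (0.097) and ZHX3 (0.10), by a shift of 0.12. The lowest read count of the 3 genes in a library was 570, and whether depth limited their calls was not tested.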

Other observations

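The recovered reads also show how far apart the libraries of a group lay, a comparison chosen after its values were seen. Over the 1093 genes with a symbol and recovered reads, the median gap on the log2 scale (pseudocount 1) was 0.22 between the Hoxb8 libraries and 0.15 between the controls, and 666 genes (60.9 percent) had the wider gap in Hoxb8. TSHZ1 followed that order, with gaps of 0.043 in Hoxb8 and 0.010 in the controls. TSHZ2 (0.13 and 0.33) and TSHZ3 (0.022 and 0.086) had the wider gap in the controls, with control b below control a in both.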
